A study of Mus musculus with 8 samples.

Results

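The genes described here are 10 interferon-stimulated genes that encode mostly small antiviral or regulatory proteins: Ifit1, Ifit2, Ifit3, Isg15, Usp18, Rsad2, Isg20, Bst2, Ifi27l2a and Ifi44. They were chosen by name, and each matched 1 of the 24537 gene rows of the count table. All 10 also passed the filter on low counts that left 14728 genes for testing. RNA was sequenced from EpCAM+ cells sorted by flow cytometry from pancreatic tumours of 8 individual FVB/NJ mice aged 44 to 49 days. All 8 mice carried Trp53f/f (floxed alleles of the p53 gene), Rosa26LSL-Luc (a luciferase reporter) and Pdx1-Cre, which drives Cre recombinase from the promoter of a pancreatic transcription factor. The 4 mice labelled KO were in addition homozygous for a floxed allele of Lifr, the receptor for leukaemia inhibitory factor. Of the 4 mice labelled WT, 2 had 1 floxed Lifr allele (f/+) and 2 had none (+/+). Tumours are named below by the numbers in their titles: 8490, 8397, 8430 and 8433 for KO, 8436 and 8482 for f/+ WT, and 8603 and 8420 for +/+ WT.

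Type I and type III interferons bind their receptors, activate the kinases JAK1 and TYK2, and through transcription factors that include STAT2 and IRF9 switch on many genes that carry interferon-stimulated response elements near their starts. The Ifit proteins bind viral RNA and block its translation. ISG15 is a ubiquitin-like protein that is attached to other proteins, and USP18 removes it and also damps signalling at the interferon receptor. The same genes are used as a readout of interferon signalling in tumours, where cancer cells and the macrophages among them can both express them.

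The libraries held 14938875 to 22698340 counts assigned to genes. Lifr, the targeted gene, averaged 183 ± 34.5 CPM (counts per 1000000, scaled by the TMM method) in the tumours labelled KO and 97.8 ± 22.2 CPM in the tumours labelled WT (SD, n = 4 each). In single tumours it was 158, 205, 150 and 220 CPM in KO tumours 8490, 8397, 8430 and 8433, against 126, 93.7, 71.8 and 99.6 CPM in WT tumours 8436, 8482, 8603 and 8420. Its whole-gene count was thus higher, not lower, under the label KO (log2 fold change 0.90 ± 0.19 SE, edgeR adjusted p = 0.0121), and was so under each scaling tried except that to the macrophage list, where it was -0.41. Which exon is floxed was not given in the sources used here, and the direction of every comparison below rests on the labels. The defining markers of the sorted cells were present in every tumour, but the 12 epithelial markers summed to 3417 to 4890 CPM in KO tumours, against 6544 to 8688 CPM in WT tumours, and 9 of the 12 were called lower. The 12 macrophage markers summed to 20843 to 27491 CPM in KO tumours, against 7664 to 14322 CPM in WT tumours, and 11 of the 12 were called higher. In bulk samples, fewer cells of a type and less RNA per cell cannot be told apart.

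The regions before these genes' starts are shown for the element through which interferon is known to act. The motif searched was the core of the interferon-stimulated response element, GAAA followed by any 2 bases and a second GAAA, on both strands of a window from 250 bases before to 50 bases after the gene start, with sequences from RefSeq (build GRCm38.p6). A window was held for 8 of the 10 genes; where several were held, the one nearest to the start of the counted transcript was read. The motif was found in 5 of these 8 windows, and in 3.43% of all 32817 windows. A longer form with 3 such GAAA blocks, each 2 bases from the next and so holding 2 overlapping copies of the core, was found in 2 of the 8, those of Isg15 and Bst2, and in 0.113% of all windows. The stretches below run 5′ to 3′ along each gene from base 160 to base 51 before its start, with the matches in capitals. Those of Isg15 and Bst2 show the overlapping repeats, and those of Ifit1 and Ifit3 show 2 separate copies and that of Rsad2 a single copy, which read as TTTC blocks because they lie on the opposite strand. The stretch of Ifit2 is shown because it holds no match, as is also the case for the windows read for Isg20 and Ifi44. Ifit2 had 2 windows and Isg20 had 3, and only the nearest of each was read, so an element at another start would be missed.
Isg15 (chr4:156200869-156200978, minus strand): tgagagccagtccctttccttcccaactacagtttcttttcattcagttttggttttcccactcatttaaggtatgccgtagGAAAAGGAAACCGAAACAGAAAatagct
Bst2 (chr8:71537523-71537632, minus strand): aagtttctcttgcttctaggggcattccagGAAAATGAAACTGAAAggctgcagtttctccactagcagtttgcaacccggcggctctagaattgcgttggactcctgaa
Ifit1 (chr19:34640729-34640838, plus strand): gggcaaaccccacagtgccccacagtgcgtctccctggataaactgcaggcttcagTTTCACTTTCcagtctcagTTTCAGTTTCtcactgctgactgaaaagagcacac
Ifit3 (chr19:34583369-34583478, plus strand): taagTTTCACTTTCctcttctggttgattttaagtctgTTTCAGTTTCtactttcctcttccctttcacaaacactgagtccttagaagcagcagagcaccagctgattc
Rsad2 (chr12:26456503-26456612, minus strand): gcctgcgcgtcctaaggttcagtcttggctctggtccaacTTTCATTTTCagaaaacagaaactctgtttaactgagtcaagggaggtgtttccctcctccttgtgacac
Ifit2 (chr19:34550534-34550643, plus strand): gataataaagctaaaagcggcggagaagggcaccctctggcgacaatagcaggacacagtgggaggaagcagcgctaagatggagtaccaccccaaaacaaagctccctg
A match is a description of the letters, and no binding was measured in these samples.

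Of the 10 genes, 5 were higher in KO tumours than in WT tumours: Ifit2, Ifit3, Isg15, Rsad2 and Ifi27l2a. None was called lower. A call here is an adjusted p under 0.05 in edgeR's quasi-likelihood test, with adjustment over all 14728 genes. Of these, 21.8% were called, 11.1% higher and 10.8% lower. In the same test 6 of the 10 had an unadjusted p under 0.05, the sixth being Bst2. The share of all tested genes under that unadjusted threshold was not counted, and it is at least the 21.8% called. The median log2 fold change of the 10 genes was 1.35, against 0.01 for all tested genes. In 2 of the 10, Ifit2 and Ifi27l2a, every KO tumour lay above every WT tumour, and 13.1% of all tested genes showed such a separation. These 2 stayed called when any 1 tumour was left out. The calls of Ifit3, Isg15 and Rsad2 were each lost when KO tumour 8490, 8397 or 8430 or WT tumour 8436, 8603 or 8420 was left out, and that of Isg15 also without WT tumour 8482. Scaled to library totals alone, Ifit2 and Ifi27l2a remained called, and scaled to the macrophage list, which put the median of all tested genes at -1.34, only Ifi27l2a did and 3 genes, Bst2, Isg20 and Ifi44, were called lower. The plot of levels by tumour shows this uneven pattern gene by gene.

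**Figure D1:**
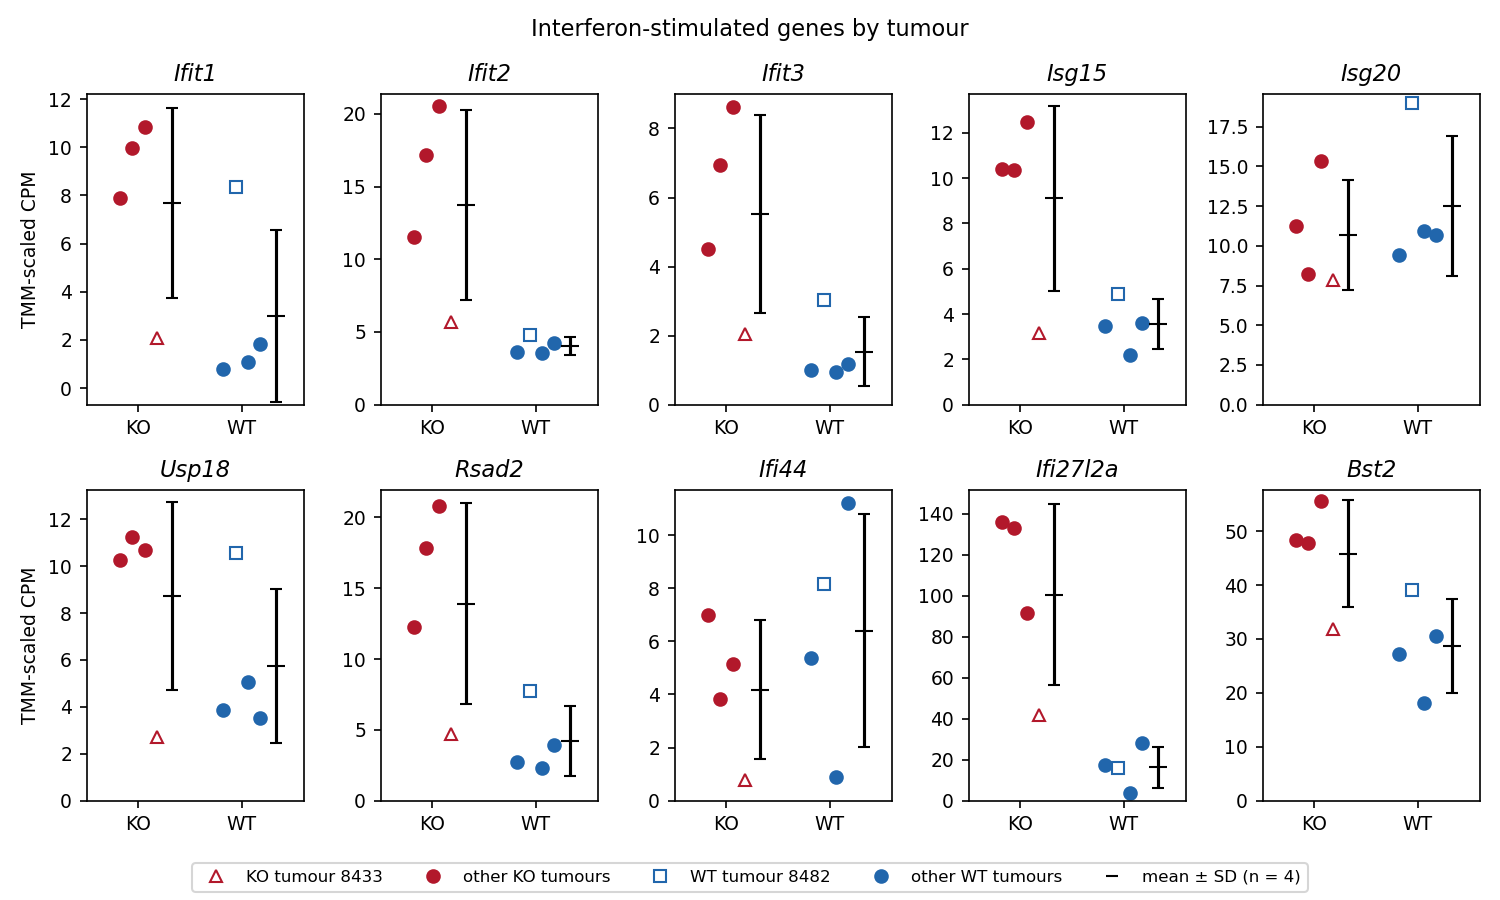
TMM-scaled CPM (y axis, each panel from its own scale) of the 10 genes in the 4 KO and 4 WT tumours; each point is 1 tumour, with KO tumour 8433 and WT tumour 8482 marked, and the lines give the mean and SD of each group. Ifit2 and Ifi27l2a are the 2 genes in which the 4 KO points all lie above the 4 WT points.

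The 3 Ifit genes lie together on chromosome 19, on the plus strand, within chr19:34550694-34650009 (mm10). Ifit2, which encodes an RNA-binding protein that works in a complex with the other Ifit proteins, had 11.5, 17.2, 20.6 and 5.71 CPM in KO tumours 8490, 8397, 8430 and 8433. In WT tumours 8436, 8482, 8603 and 8420 it had 3.59, 4.80, 3.54 and 4.24 CPM. The WT tumours were tightly grouped, the KO tumours ranged widely, and KO tumour 8433 lay just above the highest WT tumour. The log2 fold change was 1.76 ± 0.36 SE (95% interval 0.94 to 2.58, edgeR adjusted p = 0.0118), a level 3.38 times that of WT. Ifit3, another of the 3 Ifit genes, had 4.51, 6.95, 8.61 and 2.06 CPM in the KO tumours, in the same order, and 0.990, 3.03, 0.941 and 1.18 CPM in the WT tumours. The groups overlapped through KO tumour 8433 and WT tumour 8482, and Ifit3 was called higher with a log2 fold change of 1.83 ± 0.53 SE (adjusted p = 0.0393). Reads of Ifit3 may be shared with its close copy Ifit3b, which was not called (log2 fold change 0.92 ± 0.91 SE, adjusted p = 0.504).

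Ifit1, which recognises viral RNA by its cap structure, had 7.88, 9.96, 10.8 and 2.06 CPM in KO tumours 8490, 8397, 8430 and 8433. It had 0.781, 8.34, 1.08 and 1.83 CPM in WT tumours 8436, 8482, 8603 and 8420. WT tumour 8482 lay among the 3 high KO tumours, and KO tumour 8433 lay only just above the other 3 WT tumours. The difference did not pass the test (log2 fold change 1.34 ± 0.79 SE, adjusted p = 0.255), and without WT tumour 8482 it was 2.64 with an adjusted p of 0.0236. Ifit1 thus had a fold change close to that of Isg15 below and a wider spread within the WT group.

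Isg15, on the minus strand at chr4:156199424-156200818, had 10.4, 10.4, 12.5 and 3.18 CPM in the KO tumours and 3.49, 4.89, 2.20 and 3.59 CPM in the WT tumours, each in the order given above. KO tumours 8490, 8397 and 8430 lay above every WT tumour, and KO tumour 8433 lay within the WT range. It was called higher by a log2 fold change of 1.36 ± 0.41 SE (adjusted p = 0.0470). Usp18, which encodes the protease that takes ISG15 off its targets and is itself induced by interferon, had 10.3, 11.3, 10.7 and 2.72 CPM in the KO tumours and 3.86, 10.6, 5.06 and 3.53 CPM in the WT tumours. The 3 high KO tumours were within 1 CPM of each other, WT tumour 8482 matched them, and KO tumour 8433 was the lowest of all 8. Usp18 did not pass the test, with a log2 fold change of 0.59 ± 0.49 SE and an interval of -0.53 to 1.71 (adjusted p = 0.424). Usp18 overlaps Gm44148 on the opposite strand in the annotation, and whether the libraries kept strand is not given in the sources used here.

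Rsad2, on the minus strand at chr12:26442743-26456452, encodes viperin, an enzyme that makes a nucleotide which stops viral RNA synthesis. It had 12.2, 17.9, 20.8 and 4.68 CPM in the KO tumours and 2.76, 7.78, 2.33 and 3.95 CPM in the WT tumours. The order of the tumours was that of Ifit3, with WT tumour 8482 above KO tumour 8433 and all others separated by label. The log2 fold change was 1.72 ± 0.52 SE (adjusted p = 0.0448). Isg20, an exonuclease that degrades viral RNA, had another pattern, with 11.2, 8.25, 15.3 and 7.82 CPM in the KO tumours and 9.43, 19.0, 10.9 and 10.7 CPM in the WT tumours. Its highest tumour was WT tumour 8482, the groups overlapped throughout, and the log2 fold change was -0.23 ± 0.29 SE (adjusted p = 0.597).

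Bst2 encodes tetherin, a membrane protein that holds budding virus particles at the cell surface and that is also a surface antigen of plasmacytoid dendritic cells. It was better expressed, with 48.3, 47.7, 55.5 and 31.8 CPM in the KO tumours and 27.1, 39.1, 18.1 and 30.6 CPM in the WT tumours. The groups overlapped only between KO tumour 8433 and WT tumour 8482, yet the difference missed the threshold (log2 fold change 0.67 ± 0.24 SE, adjusted p = 0.0806). It passed without KO tumour 8433 (0.80 ± 0.23 SE, adjusted p = 0.0452) and without WT tumour 8482 (0.86, adjusted p = 0.0396).

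Ifi27l2a, which encodes a small hydrophobic membrane protein strongly induced by interferon, differed most. It lies on the minus strand at chr12:103442166-103443680. It had 136, 133, 91.6 and 41.6 CPM in KO tumours 8490, 8397, 8430 and 8433, against 17.2, 15.9, 3.54 and 28.2 CPM in WT tumours 8436, 8482, 8603 and 8420. Every KO tumour exceeded every WT tumour, and here WT tumour 8482 was not the highest of its group but the second lowest. The log2 fold change was 2.64 ± 0.58 SE (95% interval 1.31 to 3.96, adjusted p = 0.0152), a level 6.22 times that of WT. Reads of Ifi27l2a may be shared with its neighbouring copy Ifi27l2b, which was not called (0.44 ± 0.58 SE, adjusted p = 0.625).

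Ifi44, a cytoplasmic protein gene induced by interferon, had a pattern unlike the others. It had 6.98, 3.82, 5.14 and 0.796 CPM in the KO tumours and 5.37, 8.15, 0.896 and 11.2 CPM in the WT tumours. WT tumour 8420 was highest, and KO tumour 8433 and WT tumour 8603 were lowest and nearly level with each other. The log2 fold change was -0.61 ± 0.75 SE, with an interval of -2.32 to 1.10 (adjusted p = 0.596). Its neighbour in the family, Ifi44l, was too low in most tumours to be tested: its level was at most 0.05 CPM in the 4 KO tumours, against 1.88, 2.19, 0.00 and 5.89 CPM in WT tumours 8436, 8482, 8603 and 8420.

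KO tumour 8433 had the lowest level of the 4 KO tumours in all 10 genes. The other 3 KO tumours averaged 6.68 times its level for Ifi44, 4.64 times for Ifit1, 3.95 times for Usp18, 3.63 times for Rsad2, 3.48 times for Isg15, 3.25 times for Ifit3, 2.89 times for Ifi27l2a and 2.88 times for Ifit2. For Bst2 and Isg20 the ratio was smaller, 1.59 and 1.49. It had the lowest level of all 8 tumours in 3 genes, Usp18, Ifi44 and Isg20. For Isg20 it was close to KO tumour 8397. How many of all tested genes were lowest in KO tumour 8433 was not counted. Several of the 10 also varied together over the tumours, so they are not separate observations of it. Without KO tumour 8433, the same 5 genes and Bst2 were called higher, 6 of 10, while 9.69% of all tested genes were called higher. The log2 fold changes without it were 2.89 for Ifi27l2a, 2.095 for Ifit3, 2.004 for Ifit2, 1.99 for Rsad2 and 1.63 for Isg15. Its macrophage markers summed to 24826 CPM, within the range of the other KO tumours, and its epithelial markers to 4890 CPM, the highest of the KO tumours. Its acinar markers, described below, summed to 1833 CPM, the lowest of the KO tumours.

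The mean deviation of the 10 genes from their own averages over the 8 tumours, on the log2 CPM scale, was 0.84, 0.92, 1.13 and -0.63 in KO tumours 8490, 8397, 8430 and 8433. It was -0.80, 0.26, -1.32 and -0.39 in WT tumours 8436, 8482, 8603 and 8420. The order of the tumours was thus the 3 high KO tumours, then WT tumour 8482, then WT tumour 8420, KO tumour 8433 and the other 2 WT tumours. Isg15 followed this mean most closely, with a root mean square difference of 0.18 log2 units. Ifi44, Ifi27l2a and Isg20 departed from it most, with 1.12, 1.05 and 0.82 log2 units. The most alike pair was Ifit3 and Rsad2, at 0.15 log2 units over the 8 tumours. These are descriptions over the same 8 libraries that the comparison of labels uses.

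**Figure D2:**
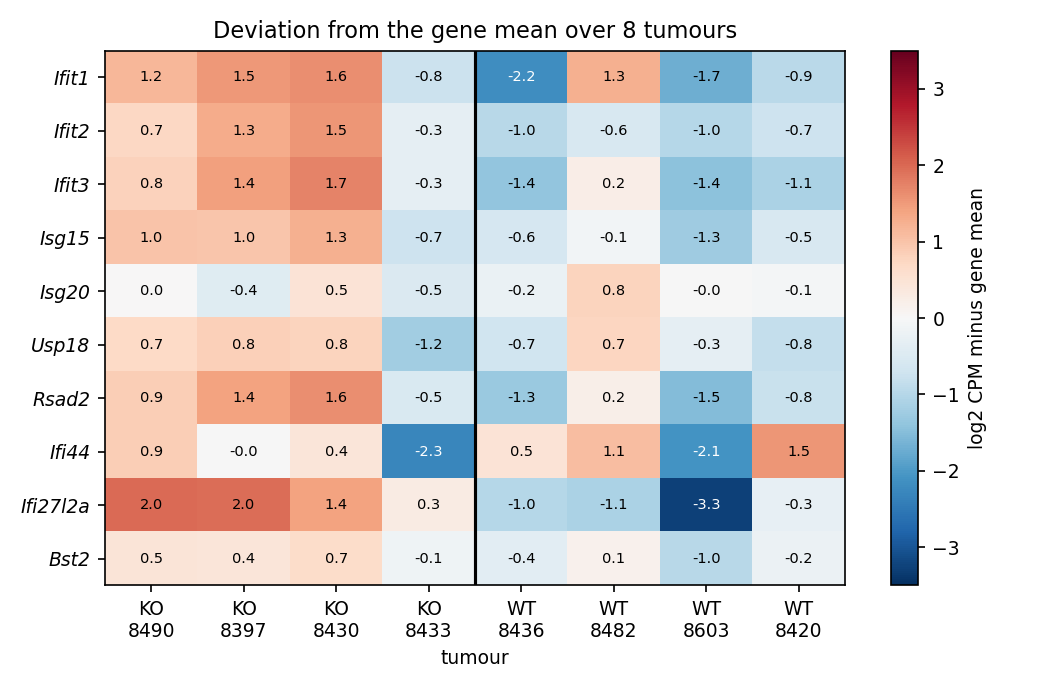
Deviation of each gene's log2 CPM from its own mean over the 8 tumours (colour and printed value), with genes down the page and tumours across it, KO tumours left of WT tumours. KO tumours 8490, 8397 and 8430 are above the mean in most genes, KO tumour 8433 is below it in most, and WT tumour 8482 is raised most in Ifit1, Ifi44, Isg20 and Usp18 and lowest in Ifi27l2a.

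The acinar markers, 8 digestive enzyme genes of the exocrine pancreas, varied widely between tumours. They summed to 42302, 8369, 26120 and 1833 CPM in KO tumours 8490, 8397, 8430 and 8433, against 966, 8616, 424 and 935 CPM in WT tumours 8436, 8482, 8603 and 8420. The 3 KO tumours high in the mean of the 10 genes, and WT tumour 8482, were the 4 tumours with the most acinar RNA. Among these 4 the orders differed: KO tumour 8397 had less acinar RNA than WT tumour 8482 but a mean deviation of 0.92 against 0.26. Not every gene followed, as Ifi27l2a and Ifi44 were highest of the WT group in tumour 8420. None of the 8 acinar genes was itself called between the labels, with a median log2 fold change of 2.98. With the acinar list's mean log2 CPM added as a covariate, a choice made after seeing the data, 0 of the 10 genes were called in edgeR. Of all tested genes 8.47% were called higher. At an unadjusted p under 0.05 in edgeR, 2 of the 10 were higher and 2 lower, a share not counted over all tested genes. In that fit Isg20 had a log2 fold change of -0.81 ± 0.23 SE (adjusted p = 0.0543) and Ifi44 one of -2.28 ± 0.98 SE (adjusted p = 0.161). In the same fit Ifi27l2a had a log2 fold change of 1.91 (adjusted p = 0.142) and Ifit2 one of 1.18 (adjusted p = 0.128). For Ifit1 the log2 fold change was 0.03 and for Usp18 it was -0.40. Of the 4 tumours with the most acinar RNA 3 were KO, so this fit cannot tell acinar RNA apart from the label. The part of the acinar RNA in these results was not tested.

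**Figure D3:**
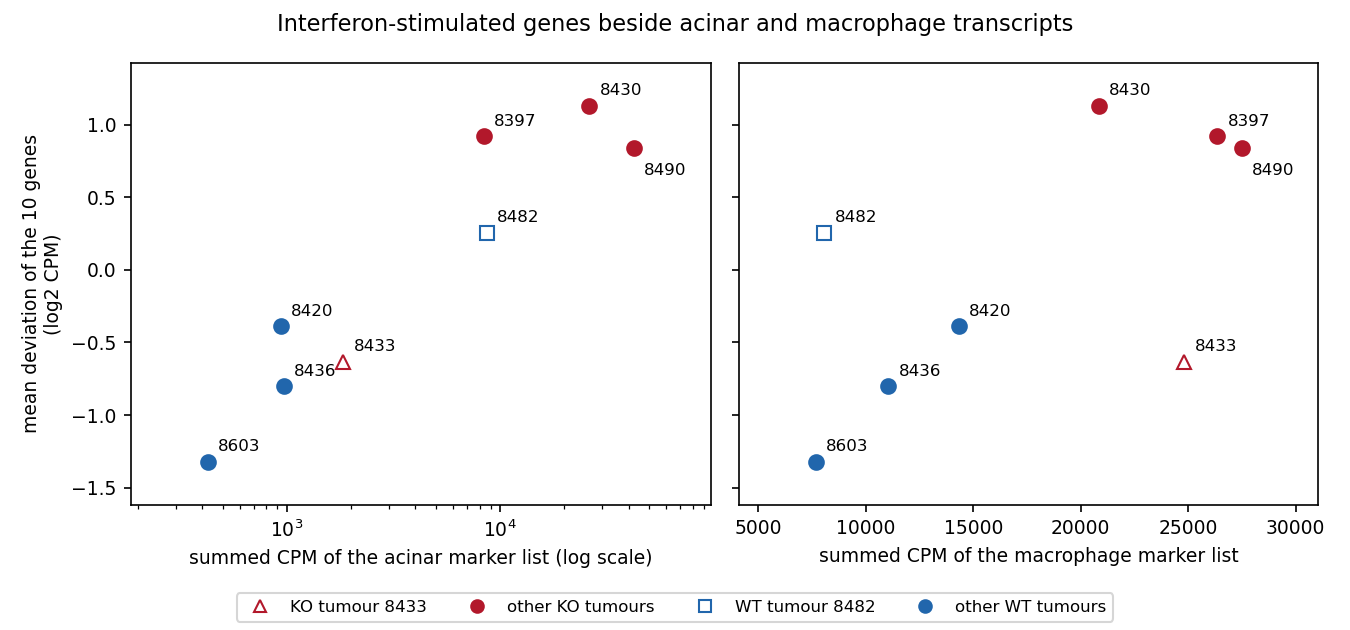
Mean deviation of the 10 genes (y axis, log2 CPM) against the summed CPM of the acinar list (left, log scale) and of the macrophage list (right, linear scale) in each tumour, KO and WT in different colours. In the acinar panel the 4 tumours with the highest sums, 3 of them KO and 1 of them WT tumour 8482, are the 4 with a mean deviation above 0; in the macrophage panel KO tumour 8433 lies with the other KO tumours on the x axis but low on the y axis.

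Macrophage markers, in contrast, separated the labels without separating KO tumour 8433, as given above. For plasmacytoid dendritic cells, the main makers of type I interferon in blood, the level of Siglech, a surface receptor that defines them in mice, was low. Siglech had 2.97, 2.73, 1.32 and 1.498 CPM in the KO tumours and 2.87, 1.16, 1.26 and 0.825 CPM in the WT tumours. Of the 4 tested markers of these cells 1, Ccr9, was called higher, and the log2 fold changes of the 4 ran from -0.13 to 2.35. The sum of the list was 23.5 to 592 CPM in KO tumours and 9.9 to 206 CPM in WT tumours. It was made mostly of Klk1, which the exocrine pancreas also makes. The 6 general leukocyte markers were all called higher, with sums of 2550 to 3048 CPM in KO tumours and 1139 to 1707 CPM in WT tumours. Of the monocyte markers 2 of 4 were called higher and 0 lower, with log2 fold changes from -3.28 to 2.02. Their sums did not separate the labels, with 2043 to 2702 CPM in KO tumours and 794 to 13654 CPM in WT tumours. Of the neutrophil markers 1 of 4 was called higher and of the fibroblast markers 1 of 8. No T and NK cell, B cell or endothelial marker was called. No marker of any list was at 0 in all tumours. The part of these cells in the results was not tested.

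**Figure D4:**
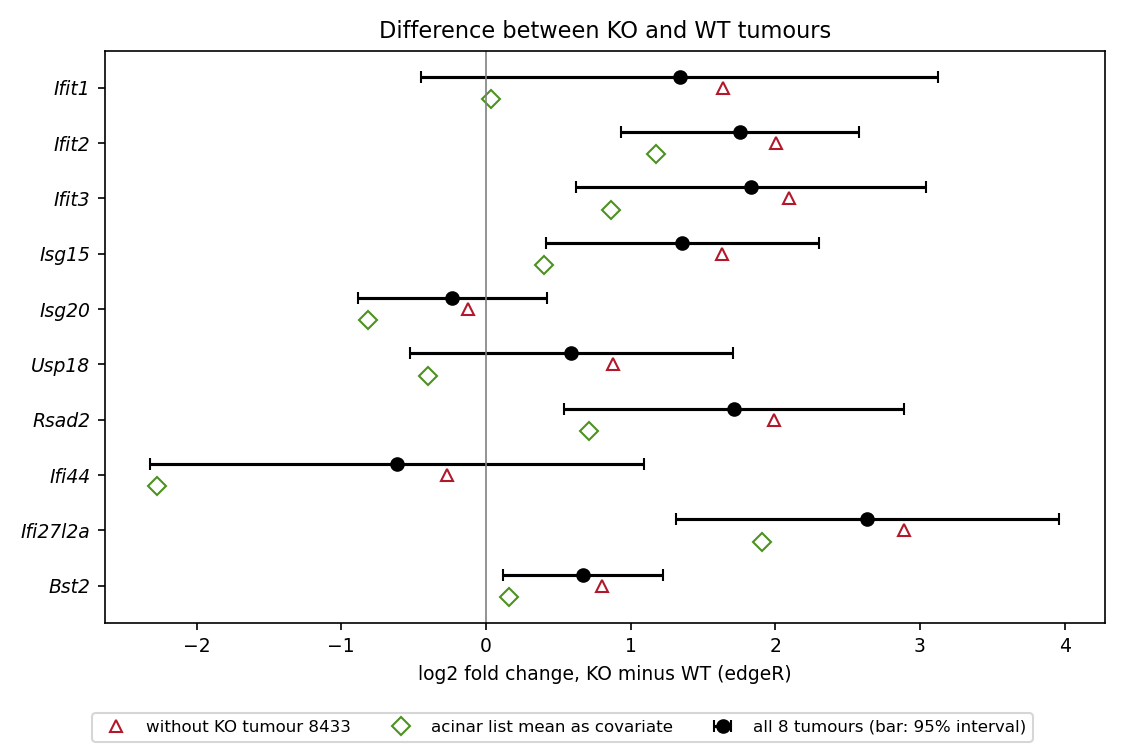
Log2 fold changes of the 10 genes, KO minus WT, from edgeR (x axis), with all 8 tumours (filled points with 95% intervals), without KO tumour 8433 (triangles) and with the acinar list as a covariate (diamonds). Ifi27l2a, Ifit3, Ifit2 and Rsad2 lead with all 8 tumours, every value is higher without KO tumour 8433, and every value is lower with the covariate.

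The WT label covers 2 genotypes, so each was set against the KO tumours in 1 fit of all 8 tumours. Against the 2 f/+ tumours, the KO tumours differed by log2 fold changes of 2.60 for Ifi27l2a (adjusted p = 0.0733), 1.71 for Ifit2 (adjusted p = 0.0590) and 1.45 for Ifit3 (adjusted p = 0.179). Against the 2 +/+ tumours, the values were 2.68 for Ifi27l2a (adjusted p = 0.0856), 1.82 for Ifit2 (adjusted p = 0.0659) and 2.38 for Ifit3 (adjusted p = 0.0766). None of the 10 was called in either comparison in edgeR, while 6.73% and 3.13% of all tested genes were called higher. At an unadjusted p under 0.05 in edgeR there were 2 and 7 of the 10, a share not counted over all tested genes. The 2 comparisons share the KO tumours. Between the f/+ and the +/+ tumours edgeR called 0 of the 10 genes, beside 0.00654% of all tested genes. None of the 10 had an unadjusted p under 0.05 there, beside 782 of the 15284 genes tested. Ifit1 had the largest log2 fold change there, 1.66 ± 1.07 SE, with means of 4.56 CPM in f/+ tumours and 1.45 CPM in +/+ tumours, and the f/+ mean rested on WT tumour 8482.

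To compare levels between genes, the deposited FPKM were used, which are scaled to transcript length and library size. Ifi27l2a had the highest level in KO tumours, at 114 ± 48.7 FPKM, against 20.9 ± 12.8 FPKM in WT tumours (SD, n = 4 each). Bst2 had 31.7 ± 7.39 FPKM in KO tumours and 22.5 ± 7.66 FPKM in WT tumours. The ranges of these 2 over tumours were apart in KO and overlapped in WT. These 2 had higher means than the other 8, whose means were 0.751 to 6.35 FPKM in KO tumours and 0.464 to 7.62 FPKM in WT tumours. Next came Isg15 with 6.35 ± 2.92 FPKM in KO tumours and 2.81 ± 0.978 FPKM in WT tumours, and Isg20 with 5.76 ± 2.06 FPKM in KO tumours and 7.62 ± 3.10 FPKM in WT tumours. In KO tumours these 2 overlapped, while Isg20 lay above Usp18 in every KO tumour. Below them, each overlapping the next, came Usp18 (2.60 ± 1.21), Rsad2 (1.94 ± 1.03), Ifit2 (1.84 ± 0.915), Ifit1 (1.53 ± 0.810), Ifit3 (1.46 ± 0.794) and Ifi44 (0.751 ± 0.456 FPKM). In WT tumours Isg20 lay above Isg15 without overlap, and Isg15 overlapped Usp18. Usp18 had 1.97 ± 1.22, Ifi44 1.31 ± 0.897, Ifit1 0.700 ± 0.864, Rsad2 0.670 ± 0.429, Ifit2 0.608 ± 0.114 and Ifit3 0.464 ± 0.327 FPKM in WT tumours, each overlapping the next. The FPKM table uses another transcript of Isg20 than the count table.

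The rest of the pathway was read from 6 lists holding 87 further genes, 86 of them in the count table. Of the 64 that passed the low-count filter, 40 were called higher in KO tumours, 1 was called lower and 23 were not called, beside the 11.1% and 10.8% of all tested genes. The lists were chosen with earlier results of these data known, so these counts are descriptions only. The ligands were nearly silent: none of the 21 interferon genes passed the filter, 15 had no count in any tumour, and all 21 together had 6 counts in the 4 KO tumours and 12 in the 4 WT tumours. A count of 0 allows up to 3 counts, which is 0.134 to 0.208 CPM in these libraries, counting error only. Of the 6 receptor genes, 4 were called higher and 1 lower. Ifnar2 and Ifnar1, the 2 chains of the type I receptor, had log2 fold changes of 0.85 ± 0.13 and 0.53 ± 0.12 SE (adjusted p = 0.00569 and 0.0189). Il10rb, the chain that the type III receptor shares with interleukin-10, had 0.86 ± 0.16 SE (adjusted p = 0.00907). Ifnlr1, the chain that gives type III interferon its specificity and is largely an epithelial gene, was lower, with 7.05 ± 1.47 CPM in KO tumours and 17.8 ± 3.68 CPM in WT tumours (SD, n = 4 each; log2 fold change -1.33 ± 0.21 SE, adjusted p = 0.00529). Scaled to the epithelial list, Ifnlr1 was no longer called (-0.46 ± 0.21 SE, edgeR adjusted p = 0.0561). That scaling put the median of all tested genes at 0.89, with 10985 genes called higher and 92 lower. Ifnlr1 still lay below that median, and the part of epithelial RNA in its difference was not tested.

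Of the 9 signalling genes 6 were called higher, with a median log2 fold change of 0.48 for the list. They included the kinases Tyk2 (0.48 ± 0.10 SE, adjusted p = 0.0109) and Jak1 (0.45 ± 0.09, adjusted p = 0.0119) and the factors Stat2 (0.73 ± 0.14, adjusted p = 0.0104) and Irf1 (0.45 ± 0.09, adjusted p = 0.0122). All 4 were smaller than the fold changes of the 5 called interferon-stimulated genes above. Of the 4 genes of ISG15 conjugation 2 were called higher: Uba7, the activating enzyme (0.66 ± 0.12, adjusted p = 0.00793), and Herc6, the ligase used in mice (0.88 ± 0.20, adjusted p = 0.0161). None of the 6 tested close relatives of the 10 genes was called in edgeR, those with the smallest p being Ifi27 (0.61 ± 0.20, adjusted p = 0.0554) and Ifit1bl1 (1.47 ± 0.65, adjusted p = 0.139). Of the 39 other interferon-stimulated genes 28 were called higher and 0 lower, with a median log2 fold change of 1.02. The 4 with the smallest p, each with an adjusted p of 0.00440, were Znfx1 (0.81), an RNA helicase, Dhx58 (1.56), the sensor LGP2, Parp12 (0.72), an ADP-ribosyltransferase, and Sp100 (1.46), a nuclear body protein. Scaled to the macrophage list, which put the median of all tested genes at -1.34, 2 of the 64 genes were called higher, beside 67 of all 14728. On that scale the sign turned for the receptor genes Ifnar2 (-0.44), Il10rb (-0.44) and Ifnar1 (-0.79) and the signalling genes Stat2 (-0.59), Tyk2 (-0.84), Jak1 (-0.90) and Irf1 (-0.90). It also turned for Uba7 (-0.66), Herc6 (-0.43), Ifi27 (-0.71), Znfx1 (-0.53) and Parp12 (-0.62), but not for Dhx58 (0.22) or Sp100 (0.16), and all these values lay above that median. Of the macrophage markers given above 11 of 12 were called higher, and of the epithelial markers 9 of 12 were called lower. Their part in these lists was not tested. With the acinar covariate 15 of the 64 genes were called higher, beside 8.47% of all tested genes.

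**Figure D5:**
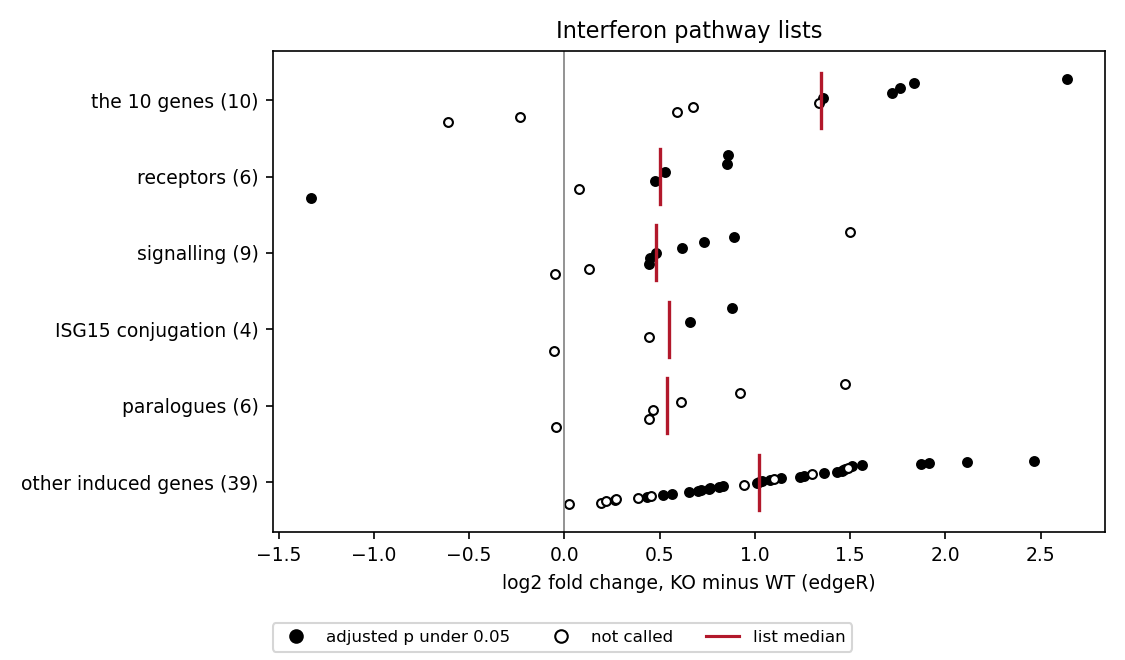
Log2 fold changes, KO minus WT, from edgeR (x axis) of the 10 genes and of 5 pathway lists (rows, with the number tested); filled points are called at an adjusted p under 0.05, open points are not, and the bar is the list median. The medians are 1.35 for the 10 genes and 1.02 for the 39 other induced genes, and 0.48 to 0.55 for the other lists; Ifnlr1 is the filled point at -1.33.

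The 10 further genes whose pattern over the 8 tumours was most like the mean of the 10 were found among 12505 genes by the root mean square difference of log2 CPM, whose median was 0.88. They were Matn4 (0.14), Oasl2 (0.24), Iigp1 (0.26), Cbs (0.27), Irf7 (0.27), Cmpk2 (0.27), P2rx1 (0.30), Mx2 (0.30), Enpep (0.31) and Xaf1 (0.31). Of these 10, 5 stood in the interferon pathway lists, which held 64 of all 14728 tested genes. How many of those 64 were among the 12505 genes compared was not counted. Irf7, the factor that amplifies the interferon response, had 40.6, 49.5, 53.7 and 11.8 CPM in KO tumours 8490, 8397, 8430 and 8433, against 9.43, 24.3, 9.68 and 11.5 CPM in WT tumours 8436, 8482, 8603 and 8420. It had the same 3 high KO tumours and the same raised WT tumour 8482, and it missed the threshold (log2 fold change 1.497 ± 0.48 SE, adjusted p = 0.0570). Cmpk2, a mitochondrial nucleotide kinase gene next to Rsad2 at chr12:26469215-26479837, had 8.27, 10.6, 10.6 and 4.45 CPM in the KO tumours and 2.76, 5.54, 1.52 and 2.65 CPM in the WT tumours. It was called higher (1.43 ± 0.42 SE, adjusted p = 0.0400), as were Mx2 and Xaf1. Matn4, a matrix protein gene with the smallest difference of all, was not called (0.999 ± 0.48 SE, adjusted p = 0.170).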

How the data were processed

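The authors deposited a table of raw counts per gene and a table of FPKM for the same 8 tumours. Per the submitters' processing notes, FastQC 0.11.2, STAR 2.4.0k, HOMER and edgeR 3.6.8 were used with build mm10. Per the file headers, HOMER made both deposited tables from RefSeq annotation, with 1 transcript per gene. The counts kept for genes were 73.5% to 80.2% of each library's header total. The 2 tables use different transcripts for 3801 genes, Isg20 and Lifr among them.

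Counts were tested here with edgeR 4.0.16 in R 4.3.3: filterByExpr (minimum count 10, total 15), TMM scaling, quasi-likelihood test, Benjamini-Hochberg adjustment over all tested genes. CPM are TMM-scaled. The common biological coefficient of variation was 0.247. No 2 tumours with the same label agreed within sampling noise. Alternatives used DESeq2 1.42.0, limma 3.58.1 on log2(FPKM + 1) and log2(FPKM + 0.1), other scalings, no filter and fewer tumours. The fit was tested on simulated data.

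The genes and lists were chosen with earlier results of these data known. Named beside the 10 genes are Lifr, at most 4 called genes with the smallest p in each pathway list (or, in a list with no call, up to 2) and the 10 most alike genes; Ifi44l, Ifit3b and Ifi27l2b as relatives, and marker genes, were named after their values were seen. Tumour numbers were not used to pair samples. An allele shared by all 8 mice is not reported here.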

Additional observations from a re-analysis of the deposited data

Results flagged for a closer look

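Values lying far from the other 3 tumours of their group were looked for in 74 groups of 37 genes. The cut used gives about 1 in 20 by chance for independent, normally distributed values. These genes share the same tumours, so that rate need not hold here, and repeated flags of 1 tumour are not separate events. WT tumour 8482 was high in Ifit1, Ifit3 and Isg20. Ifit1 had 8.34 CPM there, against 0.781 to 1.83 CPM in the other WT tumours. Ifit3 had 3.03 CPM, against 0.941 to 1.18 CPM, and Isg20 had 19.0 CPM, against 9.43 to 10.9 CPM. It was also high in Irf7, P2rx1 and Enpep, but these were named for their likeness to the mean of the 10 genes, in which that tumour is already the highest of the WT group. Irf7 had 24.3 CPM, against 9.43 to 11.5 CPM. P2rx1 had 6.85 CPM, against 1.61 to 2.19 CPM, and Enpep had 3.59 CPM, against 1.46 to 1.75 CPM.

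In KO tumours, Usp18 was low in tumour 8433, with 2.72 CPM against 10.3 to 11.3 CPM in the others. Tyk2 had 1 high KO tumour, with 155 CPM against 132 to 136 CPM, and 1 high WT tumour, with 117 CPM against 91.5 to 95.7 CPM. Parp12 had 1 high WT tumour, with 41.3 CPM against 33.4 to 34.6 CPM. Ifnlr1 had 1 low WT tumour, with 12.3 CPM against 19.4 to 19.7 CPM.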

How the results depend on the processing

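No paired analysis was possible because the labels give no replicate numbers; those used here only name the tumours of a group and pair none. Of the 10 genes, 5 were called higher with the settings of the report. The count was 2 with library totals only, 9 when scaled to the epithelial list, 1 when scaled to the macrophage list (with 3 called lower), 0 with only the +/+ controls (7 higher at an unadjusted p under 0.05), 1 with only the f/+ controls, 2 with FPKM at either pseudocount and 0 with the acinar covariate (2 higher and 2 lower at an unadjusted p under 0.05). DESeq2 called 6. Leaving out 1 tumour gave 2 to 6. The number of genes called, 3216, was 11077 with epithelial scaling, 13017 with macrophage scaling, 1106 with +/+ controls, 1926 with f/+ controls, and 1755 to 3241 leaving out 1 tumour. Of those calls 50.7% were higher; the share was 99.2% with epithelial scaling, 0.515% with macrophage scaling, 22.5% with library totals and 23.5% with FPKM. The pathway lists had 40 genes called higher, and 62, 2, 13, 25 and 15 with epithelial scaling, macrophage scaling, +/+ controls, f/+ controls and the acinar covariate, and 31 to 47 leaving out 1 tumour. Between f/+ and +/+ tumours 1 gene was called, 2 without the KO tumours in the fit. Under these 2 marker scalings the typical gene had a log2 fold change of 0.89 and -1.34 (medians); relative to it the 10 genes kept their directions. Signs turned for Isg20 (0.69) and Ifi44 (0.26) with epithelial scaling, for Ifit1 (-0.11), Usp18 (-0.85) and Bst2 (-0.65) with macrophage scaling, for Usp18 (-0.40) with the acinar covariate and for Isg20 without WT tumour 8482 (0.042, range -0.46 to 0.042 leaving out 1 tumour). The cause was not tested. Most of the 10 genes had under 300 counts a tumour, and the lowest values rest on far fewer. In WT tumours 8436, 8603 and 8420 Ifit1 had 15, 24 and 31 counts and Ifit3 had 19, 21 and 20. Ifi44 had 17 counts in KO tumour 8433 and 20 in WT tumour 8603. Such counts limit the precision of single values.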
